A study of Mus musculus with 40 samples.

Results

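Angiogenin and the genes that act with it were followed through RNA-Seq of primary fibroblasts of mouse embryos (MEFs). The members were the 4 genes Ang, Rnase4, Rnh1 and Plxnb2, taken by symbol from the 24062 genes of the count table. All 4 were in the table and passed the filter on low counts in each of the comparisons. The cells came from embryos of 13.5 days post coitum, at passage 3, of a mixed C57BL/6J and 129P2OlaHsd background, and carried Sall2, which encodes a zinc finger transcription factor, in both copies (WT), in a single copy (Het) or in none (KO). They were grown without treatment (control) or with 1 µM doxorubicin, a DNA-damaging anthracycline, for 16 h. Control cells comprised 1 WT, 1 Het and 3 KO libraries. Doxorubicin-treated cells comprised 1 WT, 1 Het and 2 KO libraries, since the table gave KO embryos 2 and 3 the same count for all 24062 genes and they were counted as 1.

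Sall2 had been targeted in embryonic stem cells of strain 129P2, so KO embryos carry 129P2 DNA around Sall2 on chromosome 14. Ang starts 1.22 Mb from the start of Sall2, and loss of Sall2 and a 129P2 copy of the Ang locus cannot be told apart in these cells. The study reports sequence variants in Ang and Rnase4 that KO cells carry and WT cells lack. All reads were aligned to mm10, and the part of such mismatches in the counts was not tested. WT and Het had a single library in each treatment, so the spread within a genotype came from KO only. The libraries are bulk RNA, in which fewer expressing cells and less RNA per cell cannot be told apart.

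Angiogenin is a small secreted enzyme of the ribonuclease A family that promotes the growth of blood vessels. In stressed cells it cuts tRNAs in the anticodon loop, and the fragments lower translation. Rnase4 encodes a related secreted ribonuclease whose gene shares its upstream region with Ang. Rnh1 encodes the ribonuclease inhibitor, a cytosolic protein of leucine-rich repeats that binds enzymes of this family very tightly. Plxnb2 encodes plexin B2, a surface receptor of semaphorins that has also been described as a receptor of angiogenin.

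Ang (chromosome 14, 51091150 to 51102009, plus strand, GRCm38) lies inside the span of Rnase4 (51091077 to 51106151, plus strand). The coding sequence of each gene lies in its last exon, and these exons do not overlap. Noncoding first exons are shared over 219 bases, which are 18.2% of the exonic bases of Ang and 13.4% of those of Rnase4. A read on bases shared by both genes is ambiguous in union mode of HTSeq and is counted for neither gene, whatever the strand setting, because both genes lie on the plus strand. In GENCODE this leaves 983 exonic bases of Ang alone and 1418 of Rnase4 alone. The reads were counted over iGenomes genes, which were not used here and whose first exons may differ, so the bases that counted for each gene may differ from these. RefSeq, for example, sets a start of Rnase4 at 51096000, where GENCODE starts a first exon of Ang. Rnh1 (chromosome 7, 141160326 to 141172857, minus strand) and Plxnb2 (chromosome 15, 89155549 to 89180788, minus strand) had 2594 and 7720 exonic bases, none of them shared with another member.

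**Figure D1:**
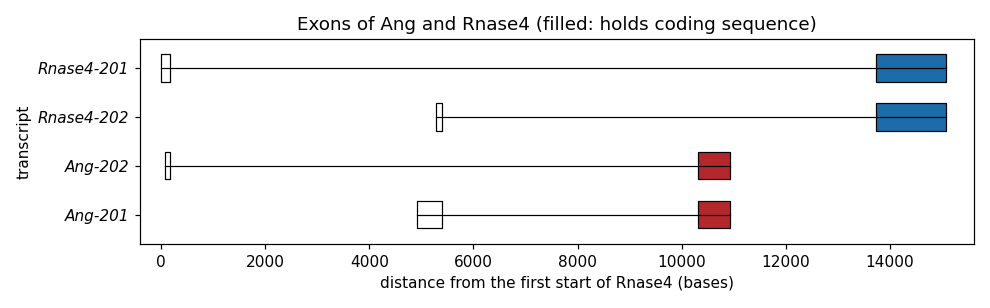
Exons of the annotated transcripts of Ang and Rnase4 against the distance in bases from the first start of Rnase4. Open boxes are noncoding first exons and filled boxes are exons with coding sequence (red for Ang, blue for Rnase4). The first exons of both genes fall together, while the coding exons stand apart.

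RefSeq gives Ang a single start window on GRCm38.p6, from 250 bases before to 50 bases after the start, and this window is the same, letter for letter, as the first of the 2 windows of Rnase4. Both windows are shown because they are the upstream sequence that the pair has in common and the start that Rnase4 has besides. Capitals mark matches on either strand. The motifs GGGTGGG and GGGCGGG both have the letters of a described SALL2 consensus. The motif GGGCGGG is also the box to which SP1 binds. No matches overlapped.

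Shared window of Ang and Rnase4, chr14:51090827-51091126, plus strand: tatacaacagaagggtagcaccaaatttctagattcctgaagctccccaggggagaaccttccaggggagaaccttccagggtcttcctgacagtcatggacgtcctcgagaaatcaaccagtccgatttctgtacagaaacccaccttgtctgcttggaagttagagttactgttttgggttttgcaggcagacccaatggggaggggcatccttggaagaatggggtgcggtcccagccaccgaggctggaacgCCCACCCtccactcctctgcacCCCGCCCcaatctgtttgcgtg

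Second window of Rnase4, chr14:51095750-51096049, plus strand: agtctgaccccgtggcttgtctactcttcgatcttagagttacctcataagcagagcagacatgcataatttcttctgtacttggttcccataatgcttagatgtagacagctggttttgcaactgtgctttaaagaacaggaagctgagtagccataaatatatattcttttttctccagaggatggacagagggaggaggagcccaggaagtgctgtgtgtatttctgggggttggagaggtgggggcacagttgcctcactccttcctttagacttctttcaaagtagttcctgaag

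The shared window held 1 match of GGGTGGG, 6 bases after the start, and 1 match of GGGCGGG, 28 bases after it, both on the minus strand. The second window of Rnase4 held neither. Plxnb2 had 1 match of GGGTGGG and 3 of GGGCGGG in its first window and 1 of GGGTGGG in its second. Rnh1 had 1 match of GGGCGGG in each of 2 of its 3 windows and none of GGGTGGG. Over all 32851 windows of RefSeq, 17.5% held GGGTGGG and 25.6% held GGGCGGG. The p53 recognition motif, in its single-copy form, was in 8.36% of all windows and in none of those of the members.

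Total counts per library lay between 15560728 and 24122414, so that 3 counts, the floor used here, corresponded to between 0.123 and 0.168 CPM (read counts scaled to the library total and by TMM). The 8 fibroblast markers summed to between 10250 and 51194 CPM, while the 6 hepatocyte markers summed to at most 3.58 CPM, with Alb at 0 in every control library. The Het libraries and the control library of KO embryo 3 stood apart from the rest. Summed over 10 genes of the interferon response they had 2172, 1443 and 2373 CPM (Het control, Het with doxorubicin and KO embryo 3 control), against 45.7 to 63.3 CPM in the other control libraries and 331 to 418 CPM in the other treated ones. Summed macrophage markers were 429 to 633 CPM in these 3 libraries and 91.1 to 168 CPM in the others, mainly through Lyz2 (288 to 363 against 34.1 to 95.2 CPM) and Emr1 (59.0 to 153 against 4.94 to 13.1 CPM). Of the 7 listed genes, all detected, Mrc1 went the other way (0.269 to 0.533 against 0.835 to 9.06 CPM), and Csf1r overlapped among the controls. Summed fibroblast markers were 10250 to 12674 CPM against 31835 to 51194 CPM. TMM factors were 1.22 to 1.33 in these libraries and 0.821 to 1.01 in the others. The scaling therefore moves every gene by 0.49 to 0.59 on the log2 scale when these libraries are set against WT.

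Sall2 itself, the check of the labels, measured 37.6 CPM in the WT control, 24.0 CPM in the Het control and 19.9, 24.2 and 19.0 CPM in the KO controls of embryos 1, 2 and 3. The Het control lay within the range of the KO controls, so in control this check did not separate Het from KO. In treated cells, WT measured 9.35 CPM, Het 7.94 CPM and KO embryos 1 and 2 measured 4.23 and 3.72 CPM. Reads of Sall2 thus remained in KO, and a count per gene does not show from which exons they came. KO differed from WT by a log2 fold change of -0.81 in control and -1.24 with doxorubicin (adjusted p of edgeR's quasi-likelihood test 1.00 and 0.0187).

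Ang was lowest in KO in both treatments. The control cells gave 8, 14 and 21 counts of Ang in KO embryos 1, 2 and 3, compared with 63 in the Het embryo and 85 in the WT embryo. The mean level of the KO embryos was 0.713 CPM ± 0.273 (SD, n = 3), whereas Het reached 2.58 CPM and WT 4.23 CPM. Each KO library lay below Het, and Het below WT, with the highest KO library at 22.3% of the WT level and the lowest at 9.71%. By library totals alone the order was the same, but Het was at 0.916 times WT, as against 0.610 times with TMM. KO embryo 3 was then at 0.327 times WT, as against 0.223 times with TMM.

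The treated cells gave 27 and 34 counts of Ang in KO embryos 1 and 2, compared with 113 in the Het embryo and 247 in the WT embryo. The mean level of the KO embryos was 1.53 CPM ± 0.0416 (SD, n = 2), whereas Het reached 5.47 CPM and WT 12.3 CPM. Both KO libraries lay at 12.2% and 12.7% of WT and did not overlap with the other genotypes. Treated KO cells also remained below untreated WT and Het cells.

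The question of the design was whether the genotypes differ within a treatment. Among treated cells Ang was lower in KO than in WT. KO minus WT was -3.003 ± 0.325 (SE) on the log2 scale, and edgeR's quasi-likelihood test gave an adjusted p of 8.66e-17. The rank of Ang by p was 5 among 15256 genes, of which 30 (0.197%) passed the false discovery rate (FDR) of 0.01. Ang was the only one of the 4 members among them. In control the difference was of like size, -2.53 ± 0.731 (SE), with an unadjusted p of 0.0196 and rank 4 among 14470 genes, but its adjusted p was 1.00. No gene passed in control (0%) by this test or by DESeq2, where 10 and 94 genes had an unadjusted p under 0.05. The treated fit had 3 libraries and 1 residual degree of freedom, and its spread came from 2 KO libraries. Its biological coefficient of variation, edgeR's estimate of the spread between libraries, was 0.144. The control fit had 4 libraries and 2 residual degrees of freedom, and the same estimate was 0.488. It included KO embryo 3, which stood apart, while no library of the treated fit did.

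These calls changed with the fit. With all 9 libraries in a single fit the log2 fold change of Ang with doxorubicin was -2.998, with an adjusted p of 1.00. After RUVg normalization and edgeR's exact test, the kind of analysis named in the study's methods, Ang in control had a log2 fold change of -2.62 and an adjusted p of 5.00e-09, and 164 genes passed. The RUVg factor was also put into the quasi-likelihood test, a choice made after the data were seen. Ang in control was then at -2.66 with an adjusted p of 0.818, and 0 genes passed. Without KO embryo 3 the difference in control was -2.81 ± 0.508 (SE) on the log2 scale, with an adjusted p of 0.668.

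Across the genotype values (1 for WT, 0.5 for Het and 0 for KO), the slope of Ang in control was 2.62 on the log2 scale from KO to WT. It was the largest of the 20 arrangements of these values over the 5 libraries (exact permutation p = 0.05, two-sided, the smallest that this design allows). With doxorubicin the slope was 2.98 and again the largest, of 12 arrangements (exact permutation p = 0.0833, the smallest possible), so a value under 0.05 could not be reached. Het lay between WT and KO in both treatments. By library totals without TMM, the control slope of Ang was 2.76 with an exact permutation p of 0.1. With TMM but without KO embryo 2 or 3 the exact permutation p was 0.167, above the smallest possible with 4 libraries.

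**Figure D2:**
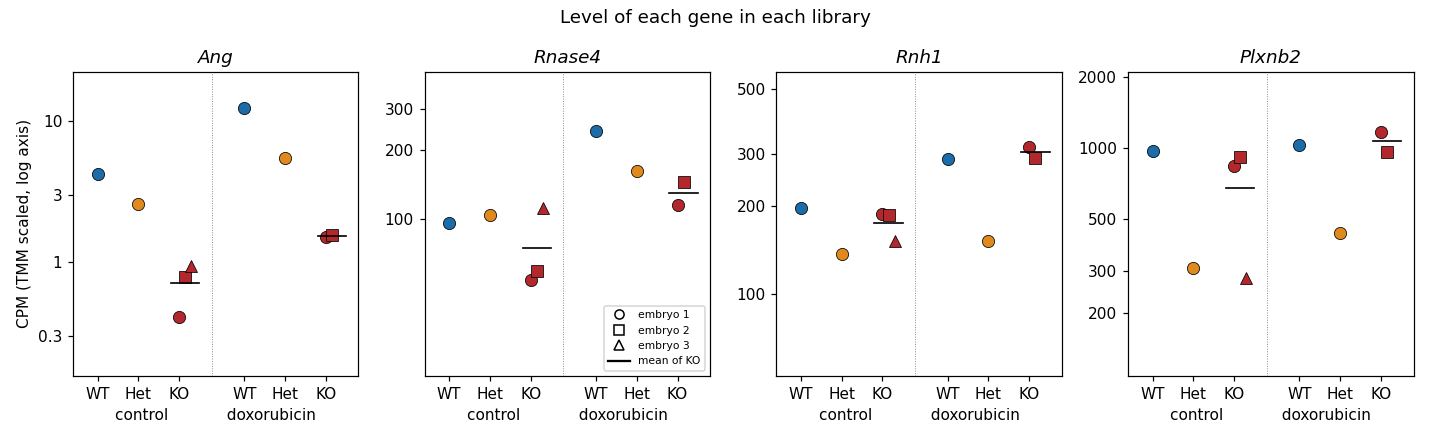
CPM of Ang, Rnase4, Rnh1 and Plxnb2 in each of the 9 libraries on log axes, by genotype (blue WT, orange Het, red KO) and treatment. Symbols mark the embryos and bars the mean of the KO libraries. Ang is at most 1.56 CPM in every KO library and at least 2.58 CPM in every other library, while Plxnb2 is low in both Het libraries and in KO embryo 3.

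Rnase4, which lies around Ang, did not follow the same order. Among the controls, WT had 96.6 CPM, Het 104 CPM and KO embryos 1, 2 and 3 had 54.1, 59.2 and 112 CPM. KO embryos 1 and 2 were below WT, whereas KO embryo 3 was above it, so that KO and WT overlapped. The libraries of KO embryo 3 and Het, the 2 highest of the 5, are those with the high interferon sums given above, and the part of that state in the level of Rnase4 was not tested. KO minus WT was -0.33 ± 0.529 (SE) on the log2 scale, and the adjusted p of edgeR's quasi-likelihood test was 1.00. Without KO embryo 3 the difference was -0.75 ± 0.142 (SE), with an adjusted p of 0.684, whereas it was -0.14 without KO embryo 1 and -0.18 without KO embryo 2.

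Among the treated cells, WT had 242 CPM of Rnase4, Het 162 CPM and KO embryos 1 and 2 had 114 and 145 CPM. The order was then that of the Sall2 genotype, without overlap. KO minus WT was -0.90 ± 0.221 (SE) on the log2 scale, with an adjusted p of 0.0189 that missed the FDR of 0.01. The slope over the genotype values was 0.89 (exact permutation p = 0.0833, the smallest possible with 4 libraries), against 0.53 in control (exact permutation p = 0.45 of 5 libraries). By library totals without TMM the slope with doxorubicin was 0.94, with an exact permutation p of 0.167, and so was not the most extreme. After RUVg and edgeR's exact test the control value was -0.51, with an adjusted p of 0.000940. With the RUVg factor in the quasi-likelihood test it was -0.53, with an adjusted p of 0.818.

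Within a library, the share of Ang in the counts of Ang and Rnase4 does not depend on library size or scaling. It does depend on Rnase4 as well as on Ang. In the Het control Rnase4 was at 1.62 times WT by library totals (1.08 with TMM) and Ang at 0.916 times (0.610 with TMM). In the control of KO embryo 3 Rnase4 was at 1.70 times WT by library totals (1.16 with TMM). In control it was 4.20% in WT (95% Wilson interval 3.41% to 5.16%, of 2024 counts) and 2.42% in Het (1.90% to 3.09%, of 2600 counts). In KO it was 0.753%, 1.31% and 0.838% in embryos 1, 2 and 3, a mean of 0.967% ± 0.301 (SD, n = 3). KO embryo 3, in which Rnase4 was above WT, thus had an Ang share within the range of the other KO embryos. The intervals of WT lay above those of all other control libraries, while those of Het and KO embryo 2 (0.782% to 2.19%) overlapped.

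With doxorubicin the share was 4.83% in WT (4.27% to 5.45%), 3.27% in Het (2.73% to 3.92%) and 1.29% and 1.06% in KO embryos 1 and 2 (0.891% to 1.88% and 0.763% to 1.48%). No interval of a genotype overlapped with that of another. Each interval was taken from the counts of a single library, so it holds for counting error alone and leaves out the spread between embryos. PCR copies of a molecule were not marked, so the intervals may be too narrow even for counting error. The slope of the log2 ratio of Ang to Rnase4 over the genotype values was 2.28 in control (exact permutation p = 0.05) and 2.18 with doxorubicin (exact permutation p = 0.0833), each the smallest p possible. Counts of Rnase4 were 22.8 times those of Ang in WT and between 75.3 and 132 times in the KO libraries in control.

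**Figure D3:**
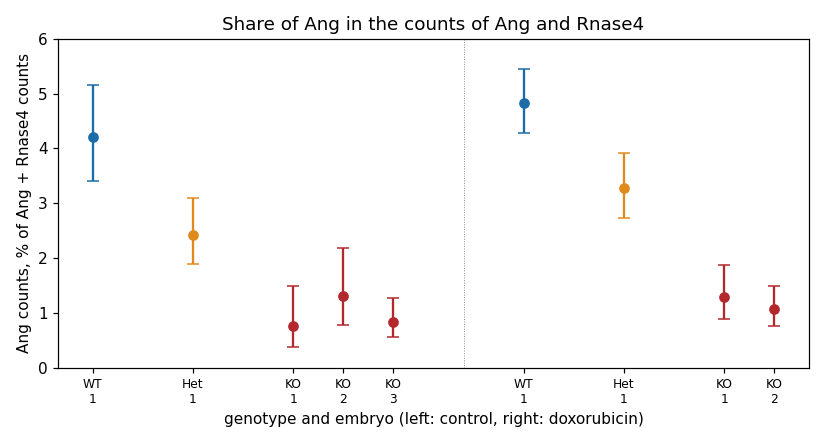
Counts of Ang as a percentage of the counts of Ang and Rnase4 in each library, by genotype and embryo, with 95% Wilson intervals. Control libraries are on the left and doxorubicin-treated ones on the right. The WT libraries are at 4.20% and 4.83% and the KO libraries at or below 1.31%.

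Rnh1, the inhibitor, was not called between KO and WT. Among the controls, WT had 197 CPM, Het 137 CPM and KO embryos 1, 2 and 3 had 188, 187 and 152 CPM. Among the treated cells, WT had 289 CPM, Het 152 CPM and KO embryos 1 and 2 had 319 and 293 CPM. The KO controls lay below WT, and both treated KO libraries lay above it. KO minus WT was -0.14 ± 0.361 (SE) on the log2 scale in control and 0.08 ± 0.247 (SE) with doxorubicin, and both adjusted p by edgeR's quasi-likelihood test were 1.00. Het was the lowest library in each treatment, but by library totals alone its control level was 1.04 times that of WT, as against 0.694 times with TMM. KO embryo 3 turned in the same way, from 0.772 to 1.13 times WT.

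Plxnb2, the receptor, was among the abundant transcripts. Among the controls, WT had 972 CPM, Het 309 CPM and KO embryos 1, 2 and 3 had 838, 920 and 281 CPM. Among the treated cells, WT had 1033 CPM, Het 438 CPM and KO embryos 1 and 2 had 1170 and 965 CPM. The low values were those of the same 3 libraries that had the high interferon and macrophage sums and the low fibroblast sums, and the part of these in the level of Plxnb2 was not tested. KO minus WT was -0.49 ± 0.802 (SE) on the log2 scale in control and 0.04 ± 0.291 (SE) with doxorubicin, with adjusted p of 1.00 by edgeR's quasi-likelihood test. Without KO embryo 3 the control value was -0.13 ± 0.202 (SE), whereas it was -0.67 without KO embryo 1 and -0.77 without KO embryo 2. By library totals alone the 3 low libraries were still at 0.478, 0.424 and 0.597 times WT (Het control, KO embryo 3 control and Het with doxorubicin).

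**Figure D4:**
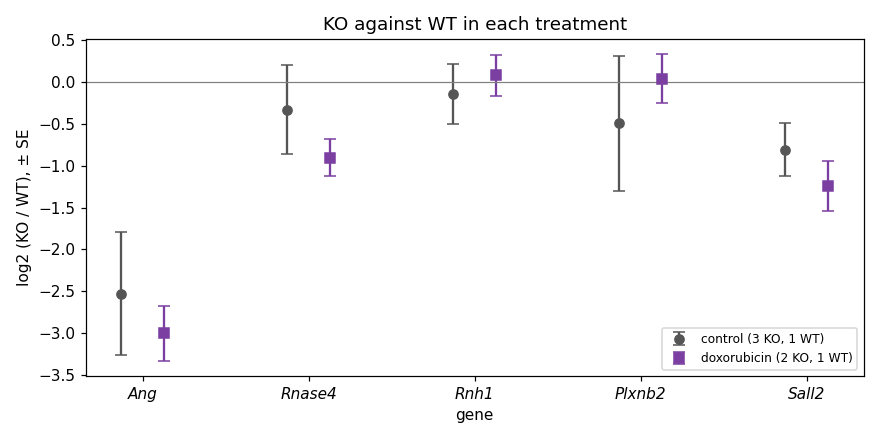
KO minus WT on the log2 scale, for control (circles) and with doxorubicin (squares) for the 4 members and Sall2. Bars are standard errors of edgeR's quasi-likelihood fit. Ang is at -2.53 and -3.003, farther from 0 than the other genes.

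Per length of the GENCODE exonic bases outside the other members, Ang was the least abundant of the members, at 0.418 to 12.5 CPM per kb over the 9 libraries. Rnase4 was at 38.2 to 171, Rnh1 at 52.8 to 123 and Plxnb2 at 36.4 to 152 CPM per kb, and these 3 ranges overlapped. The levels of Ang were ordered from WT with doxorubicin over Het with doxorubicin, WT control and Het control to KO with doxorubicin and KO control. The KO groups did not overlap, with 1.50 and 1.56 CPM treated against 0.411 to 0.942 CPM untreated. The other neighbours in this order are single libraries without a measured spread.

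The second question was how doxorubicin changed the members in each genotype. Ang was higher with doxorubicin in every embryo with both libraries, by a CPM ratio of 3.66 and 1.99 in KO embryos 1 and 2, 2.12 in the Het embryo and 2.90 in the WT embryo. The treated library taken here as that of KO embryo 2 was given for embryo 3 too, and its embryo cannot be told. Set against the control of embryo 3, its ratio was 1.66 for Ang, 1.30 for Rnase4, 1.92 for Rnh1 and 3.44 for Plxnb2. Over all 9 libraries, with genotype held fixed, Ang rose by 1.20 ± 0.295 (SE) on the log2 scale (adjusted p 0.00786 by edgeR's quasi-likelihood test). It was the only member past the FDR of 0.01 in this fit, in which 40.6% of 16656 genes passed, so a call is not unusual for a gene here. The call was lost without the WT embryo (adjusted p 0.0531), the Het embryo (0.0217), KO embryo 1 (0.0315) or KO embryo 2 (0.0486).

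Rnase4 had CPM ratios of 2.51 for WT, 1.56 for Het, 2.12 for KO embryo 1 and 2.45 for KO embryo 2. The fit gave 0.88 ± 0.247 (SE) on the log2 scale and an adjusted p of 0.0147. Rnh1 had ratios of 1.46, 1.11, 1.70 and 1.57, in the same order of embryos, and a fitted value of 0.60 ± 0.171 (SE, adjusted p 0.0159). Neither passed the FDR of 0.01 in this fit. With the embryo as a replicate block Rnase4 (1.09, adjusted p 0.000153) and Rnh1 (0.53, adjusted p 0.00422) passed by edgeR's quasi-likelihood test, as did 57% of all genes. With the identical library as that of embryo 3 in the block, where 38.6% of all genes passed, Rnase4 passed (adjusted p 0.00771) and Rnh1 did not (adjusted p 0.0351). Without the Het embryo and KO embryo 3 both passed, with log2 fold changes of 1.24 and 0.65, as did 66.6% of all genes. The last 2 choices were made after the data were seen.

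Plxnb2 had ratios of 1.06 for WT, 1.42 for Het, 1.40 for KO embryo 1 and 1.05 for KO embryo 2. The fit gave 0.49 ± 0.346 (SE) on the log2 scale (adjusted p 0.258). With the replicate block it was 0.28, with an adjusted p of 0.0514 that also missed the threshold.

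In KO alone, 12.8% of 14904 genes passed and none of the members did. Log2 fold changes were 1.11 for Ang (adjusted p 0.147), 0.80 for Rnase4 (0.154), 0.82 for Rnh1 (0.0402) and 0.68 for Plxnb2 (0.384), by edgeR's quasi-likelihood test. With the replicate block, in which KO embryo 3 has no partner, Ang (1.39, adjusted p 0.00704), Rnase4 (1.22, 3.77e-09) and Rnh1 (0.74, 4.79e-06) passed. Plxnb2 did not (0.31, adjusted p 0.0425). The count of genes past the threshold moved from 1911 to 10055 (67.5% of those tested). With the identical library as that of embryo 3 in the block, a choice made after the data were seen, no member passed and 2645 genes did (17.7%). The adjusted p by edgeR's quasi-likelihood test were then 0.342 for Ang, 0.182 for Rnase4 and 0.189 for Rnh1.

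A difference between KO and WT in the change with doxorubicin was tested as an interaction. The KO change minus the WT change on the log2 scale was -0.45 ± 0.836 (SE) for Ang, -0.54 ± 0.696 for Rnase4, 0.25 ± 0.457 for Rnh1 and 0.56 ± 1.05 for Plxnb2. All adjusted p were 1.00 by edgeR's quasi-likelihood test. No gene of 15905 passed (0%), while 41 had an unadjusted p under 0.05, and DESeq2 also called 0 genes, with 24 at an unadjusted p under 0.05. With the replicate block 8 genes passed, none of them a member, and the values of Ang, Rnase4, Rnh1 and Plxnb2 were -0.18, -0.14, 0.16 and 0.18. Without KO embryo 3 and without the block they were -0.20, -0.15, 0.14 and 0.17. With the identical library as that of embryo 3 in the block they were -0.29, -0.60, 0.30 and 1.04.

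**Figure D5:**
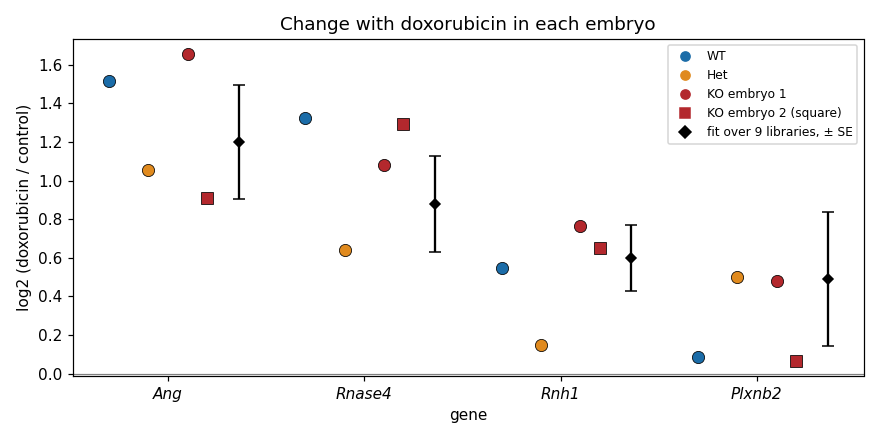
Log2 ratio of doxorubicin to control in each embryo (with a prior count of 2) for the 4 members. Circles are WT (blue), Het (orange) and KO embryo 1 (red), the red square is KO embryo 2, and diamonds with bars are the fit over 9 libraries with its standard error. All points lie above 0.

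Of the 21 genes of the RNase A family in the table, 8 had no count in any library. Ang and Rnase4 had the most counts. In KO against WT, 5 members of the family were tested in control and 0 passed, as did 0% of all genes. Their median log2 fold change was 1.45 beside 0.04 over all genes tested. With doxorubicin 4 were tested, where 0.197% of all genes passed. Ang was called lower in KO than in WT and none higher, with a median of 0.18 beside 0.01 over all genes. In both treatments Ang2 and Rnase10 passed the filter on low counts through KO libraries alone, as did Rnase2a in control. These genes therefore had to be higher in KO, and both medians are descriptions. Ang2, a near copy of Ang picked after its values were seen, reached 5 counts in treated WT cells and 22 and 19 counts in those of KO embryos 1 and 2. Its log2 fold change of 2.03, with an adjusted p of 0.820 by edgeR's quasi-likelihood test, is likewise a description. The longest identical run of bases in the transcripts of Ang and Ang2 was 93 bases, so how the counting split reads between them bears on both values.

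Among the 10 genes on each side of the Ang locus, 3 had no count and 7 were tested in KO against WT. Pnp2, which encodes a purine nucleoside phosphorylase, was the only one called with doxorubicin, where 0.197% of all genes passed. The difference of Pnp2 was -4.40 ± 0.519 (SE) on the log2 scale (adjusted p 6.67e-14 by edgeR's quasi-likelihood test). Treated KO embryos 1 and 2 gave 4 and 5 counts of it, compared with 41 for Het and 98 for WT, and no control library gave more than 6. Among the libraries of this comparison it passed the filter on low counts through the WT library alone, so that it had to differ, and its value is a description. It did not pass the filter for KO against WT in control or for doxorubicin in KO. Pnp2 is a near copy of its neighbour Pnp, so its counts are uncertain. With doxorubicin none of the 7 was called higher in KO than in WT. Their log2 fold changes went from -4.40 (Pnp2) to 2.03 (Ang2), with a median of -0.23 beside 0.01 over all genes. Osgep, picked after its values were seen, had a log2 fold change of -0.87 with an adjusted p of 0.0307. Pnp and Tmem55b, the neighbours with the most counts, did not pass in KO against WT in either treatment. In the fit of doxorubicin over all genotypes, Pnp rose by 1.78 and Tmem55b fell by 1.05 on the log2 scale.

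The list of plexins, their semaphorin ligands and partners held 26 genes, and all were in the table. In KO against WT 0 of 26 passed in control and 0 of 25 with doxorubicin, where 0% and 0.197% of all genes passed. The medians were -0.10 and 0.00 beside 0.04 and 0.01 over all genes. With doxorubicin over all genotypes 5 rose and 7 fell, where 40.6% of all genes passed, and the median was 0.12 beside 0.02 over all genes. The genes that rose were Plxnc1 (log2 fold change 3.03), Rnd2 (2.27), Rnd1 (1.94), Mst1r (1.48) and Plxnd1 (0.99). Rnd1 and Rnd2 encode small GTPases and Mst1r a receptor kinase that pairs with B plexins.

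Those that fell were Plxna1 (log2 fold change -1.45), Sema4f (-1.20), Rras2 (-1.16), Sema4b (-1.03), Plxna3 (-0.87), Arhgef12 (-0.87) and Rnd3 (-0.84). Arhgef12 encodes an exchange factor that links B plexins to RhoA. Rhoa, the GTPase itself and the gene of the list with the most counts after Plxnb2, was not called. Without the Het embryo and KO embryo 3, 9 rose and 12 fell of 25 tested, among them all 12 genes above, while 66.6% of all genes passed.

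The list of genes of tRNA cleavage, protection and repair held 16 genes, all tested. In KO against WT 0 passed in either treatment, where 0% of all genes passed in control and 0.197% with doxorubicin. The medians were 0.03 in control and -0.02 with doxorubicin, beside 0.04 and 0.01 over all genes. With doxorubicin over all genotypes 3 rose and 5 fell, where 40.6% of all genes passed, with a median of -0.50 beside 0.02 over all genes. Trpt1, a tRNA phosphotransferase (log2 fold change 1.45), Ybx1, a cold shock protein that binds tRNA fragments (0.93), and Tsen34, a subunit of the tRNA splicing endonuclease (0.90), rose. Among those that fell were Tsen15 (-1.38) of the same endonuclease, Alkbh1, a tRNA demethylase (-1.59), Trdmt1, a cytosine methyltransferase of tRNA (-1.14), and Ssb, the La protein (-0.85). Nsun2, a tRNA methyltransferase with the most counts after Ybx1, was not called. Without the Het embryo and KO embryo 3, 4 rose and 8 fell, where 66.6% of all genes passed.

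The genes whose log2 CPM followed that of each member most closely over the 9 libraries were taken from 16656 genes by Pearson's r, as a description. The 9 libraries share cells, depth and scaling, and no p is given. For Ang these were Ppp1r3e (r = 0.927), Ccdc170 (0.896), Zmynd11 (0.888), Pde1c (0.884) and Ncoa4 (0.855). For Rnase4 they were Myl12b (0.966), Taf7 (0.949) and Atg14 (0.943). For Rnh1 they were Uxs1 (0.995), Rtca (0.989) and Ahsa1 (0.987), and for Plxnb2 Itgb5 (0.999), Plod3 (0.997) and Clpb (0.996).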

How the data were processed

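Stranded RNA-Seq libraries depleted of rRNA were read by the authors as 4 runs each, which they merged. They aligned the reads to mm10 with HISAT2 and sorted them with Picard. Counting was by HTSeq (union mode) over iGenomes genes. HISAT2 is given as 2.1.0 in the submitters' processing notes. The strand setting is not given in the sources used here. The deposited counts are whole numbers, not normalized or filtered.

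The 9 libraries were compared with edgeR 4.0.16 under R 4.3.3. Libraries were scaled with TMM, genes were filtered with filterByExpr over the groups compared, and comparisons used the two-sided quasi-likelihood test with Benjamini-Hochberg adjustment over all genes tested, at an FDR of 0.01. Doxorubicin fits held genotype as a factor. Standard errors are the log2 fold change over the square root of F. Slopes used exact permutation of the genotype values. CPM per kb used the GENCODE exonic bases outside other members. DESeq2 1.42.0 and the other settings are given in the closing section. Gene positions are from GENCODE on GRCm38, and upstream windows from RefSeq on GRCm38.p6. The tests were tried on simulated counts. These varied less than the libraries in every comparison, though only slightly less in KO against WT with doxorubicin, and nothing is concluded from them.

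Members, lists and named genes were chosen with earlier results of these data known. Named were the members, Sall2, of each list the genes past the FDR of 0.01 and the 2 with the most counts, and for each member the genes of the most similar pattern. Replicates are numbered by the labels. The p-values measure only the spread between these libraries, which may be technical. The numbers of the KO libraries, shared by both treatments, were taken as embryos. As a check of this pairing, the difference between KO embryos 1 and 2 correlated between treatments with r = 0.342 over 16656 genes. The values of 1 gene of a list are not reported here.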

Additional observations from a re-analysis of the deposited data

How the results depend on the processing

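Among the fold changes of the members in the 5 comparisons, that of Plxnb2 in KO against WT with doxorubicin changed sign under 1 setting (below), and no other did, while calls did change. The cause was not tested for any value below. In KO against WT, control, RUVg and the exact test called 164 genes, with Ang at -2.62 and Rnase4 at -0.51. In KO against WT with doxorubicin, where 30 genes passed, DESeq2 called 5, the filter of 5 counts in 2 libraries 4, an FDR of 0.05 called 46, now with Rnase4 (-0.90), and all libraries in a single fit 0, with Ang at -2.998 no longer called (26 genes at an unadjusted p under 0.05 in that fit).

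For doxorubicin over all genotypes (6760 genes), an FDR of 0.001 left 3430 genes, without Ang (1.201). Rnase4 and Rnh1 passed with an FDR of 0.05 (0.88 and 0.60), with DESeq2 (0.94 and 0.66) and with the replicate block (1.09 and 0.53). Chosen after the data were seen, leaving out the Het embryo and KO embryo 3 called 10281 genes (Rnase4 1.24, Rnh1 0.65), and 11559 with the replicate block besides (1.23 and 0.65). With the identical library taken as embryo 3 in the block, also chosen then, Rnase4 passed (0.86) and Rnh1 did not. For doxorubicin in KO (1911 genes), an FDR of 0.05 called 5130 with Rnh1 (0.82), an FDR of 0.001 called 0, although 6844 genes had an unadjusted p under 0.05, DESeq2 called 4555 with Rnh1 (0.83), and the replicate block 10055 with Ang (1.39), Rnase4 (1.22) and Rnh1 (0.74), none of which passed with the identical library as embryo 3 (2645 genes). The interaction had 8 genes with the replicate block and, in 2 further fits with the block chosen after the data were seen, 2 with the identical library as embryo 3 and 7 without KO embryo 3. Likewise chosen then, RUVg factors in the quasi-likelihood test called 0 genes in KO against WT, control (804 at an unadjusted p under 0.05). The block changed no other call of a member. Without TMM the control slope of Ang was 2.76, no longer the most extreme.

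Leaving out an embryo in turn gave between 0 and 47 genes in KO against WT, control (47 without KO embryo 1, 41 without KO embryo 2), 0 to 13 for the interaction (13 without KO embryo 1 or 2), 2916 (without KO embryo 2) to 9770 (without KO embryo 3) for doxorubicin over all genotypes and 392 (without KO embryo 2) to 8126 (without KO embryo 3) in KO. The change over all genotypes then ranged from 1.09 to 1.33 for Ang (past the FDR of 0.01 only without KO embryo 3), 0.75 to 1.09 for Rnase4 and 0.53 to 0.74 for Rnh1, and in KO from 0.43 to 1.21 for Rnase4 and 0.72 to 0.87 for Rnh1. Control slopes ranged from 2.25 to 2.81 for Ang and 2.09 to 2.53 for its ratio to Rnase4, where 4 libraries cannot pass the threshold, and without KO embryo 2 or 3 the slope of Ang was not the most extreme either. They ranged from -0.013 to 0.15 for Rnh1 and from -0.14 to 0.79 for Plxnb2, both below 0 only without KO embryo 3. In KO against WT with doxorubicin, leaving out a KO library leaves 1 against 1 and no residual degrees of freedom, so it was done in the fit of all libraries, after the data were seen, where the lone sample is assumed to vary like the other groups. Without the treated library of KO embryo 1 or 2 this fit called 0 genes (5 and 11 at an unadjusted p under 0.05), with Ang at -2.97 and -3.054 and Plxnb2 at -0.099 and 0.15. Ang had 8 to 34 counts in KO, which limits the precision of its fold changes.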
